A study of Mus musculus with 13 samples.

Results

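The comparison set the 4 mice that carried an estradiol pellet on chow (E2) against the 3 mice fed high-fat chow and given no pellet (HD), chosen by the group in the sample titles, which gave 7 of the 13 mice of the series. All mice were female C57BL/6 animals whose ovaries had been removed at 6 to 8 weeks of age, and all were treated for 12 weeks. The other mice were 3 on normal chow without a pellet (CON) and 3 with the pellet and the high-fat diet (MIX). E2 and HD mice differed in both the pellet and the diet, so no difference between them can be assigned to one or the other. The endometrium was scraped from the opened uterus, each mouse gave 1 array, and the values are log2 expression per array feature. The study asked how estrogen and a high-fat diet shape the coding and non-coding transcriptome of this tissue.

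Estradiol binds estrogen receptors in the epithelium and the stroma of the uterus. In the mouse it is known to start epithelial division, to raise secretory products such as lactoferrin, and, with time, to draw leukocytes into the tissue. Without ovaries the main source of circulating estradiol is gone and the lining regresses. A high-fat diet loads tissues with fatty acids, which activate nuclear receptors of the PPAR family and shift lipid burning and storage, and fat tissue can form estrogens by aromatization.

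The scraped tissue carried the markers of endometrium. The epithelial genes Epcam, Krt8, Krt18 and Cdh1 averaged 10.5, 11.3, 10.9 and 11.0 in E2 and 10.6, 11.5, 11.0 and 11.1 in HD, far above 4.61, the median of all values, which serves here as a guide to background. The stromal gene Vim averaged 10.4 in E2 (SD 0.31, n = 4) and 9.80 in HD (SD 0.15, n = 3). The fat cell gene Adipoq averaged 3.31 in E2 and 3.33 in HD, below 4.61, but Plin1, another fat cell gene, averaged 5.30 and 5.36. The muscle genes Myh11 (6.56 in E2 and 6.89 in HD) and Des (6.78 and 6.58) also lay above 4.61. Mesothelial markers were present in both groups, with Upk3b at 9.87 (SD 0.50, n = 4) for E2 mice and 9.36 (SD 0.13, n = 3) for HD mice, although this gene marks the outer surface of the uterus. In such bulk samples more cells of a type and more RNA per cell cannot be told apart. The 21 pairs among the 7 arrays correlated at 0.98 to 0.993. E2 replicate 1 stood apart on the first principal component of the 7 mice (30.1% of variance), at -69.8 where the others lay between -10.7 and 30. Some of the differences that lean on it are given without it as well.

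No feature separated the 2 treatments by the test. In limma, 0 of 65929 features passed a Benjamini-Hochberg adjusted p under 0.05 (0%), and the smallest adjusted p was 0.76, held by Bmp5 and Olfm4. Every other gene named here had an adjusted p of 1 in limma. At an unadjusted p under 0.05 there were 2563 features, 596 higher in E2 and 1967 lower. The count that passed was also 0 under every alternative run. All differences below are therefore values with their spread, not calls, and each p is two-sided. A second description counts genes whose groups did not overlap, meaning that every E2 mouse lay on one side of every HD mouse. With 4 mice against 3 an exact permutation test over 35 relabelings cannot give a two-sided p below 0.0571, which is what each gene without overlap has.

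Of 30142 genes with 1 symbol, 664 were higher in all 4 E2 mice than in all 3 HD mice (2.2%) and 640 were lower in all 4 (2.12%). For a gene without any difference, 1 of the 35 relabelings gives full separation in a given direction. Neither of these 2 shares exceeds that, so the counts alone do not show a difference between the treatments. Over all 65929 features the counts were 1030 (1.56%) and 2021 (3.07%). This balance depends on the scaling. After each array was centred on its own median the counts over features were 2587 and 1014, and over genes 1419 (4.71%) and 245 (0.813%). After quantile normalization they were 1839 and 1704 over features, and 1077 and 583 over genes. The median difference of all features, E2 minus HD as plain means, was -0.021 as deposited, 0.029 after centring and 0 after quantile normalization. The size of the differences was less even than their number. Among genes without overlap, 105 were higher in E2 by more than 1 on the log2 scale and 3 were higher in HD by as much.

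**Figure D1:**
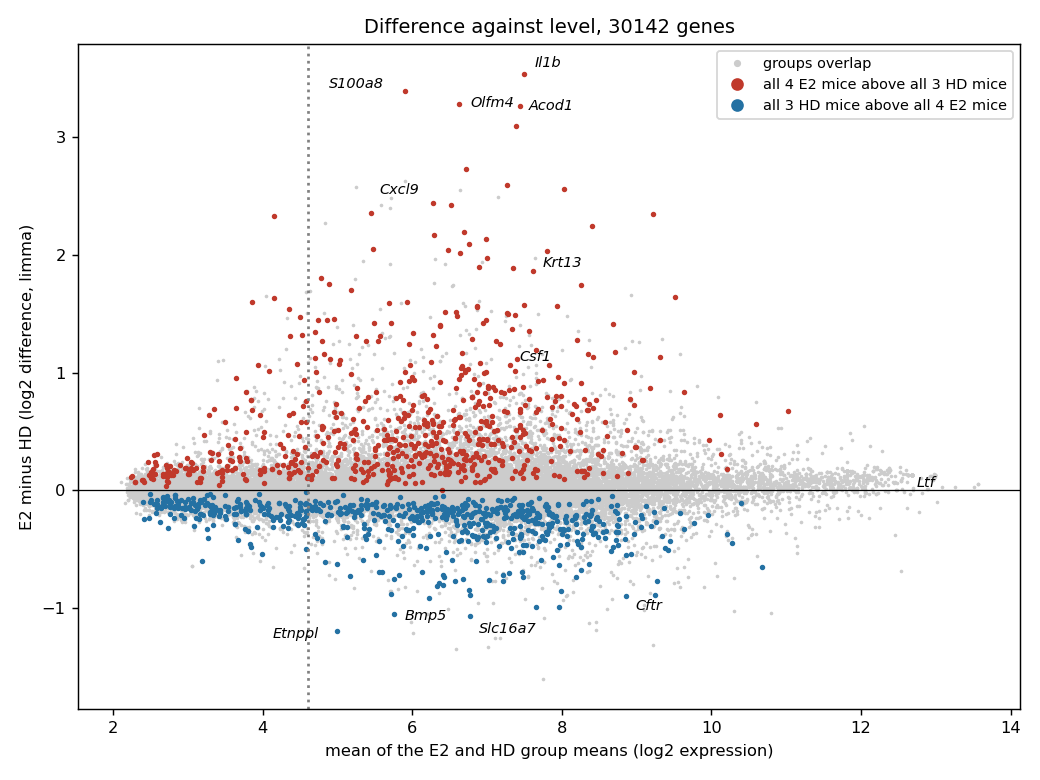
Difference between E2 and HD (limma, log2) against the mean level of the 2 groups for 30142 genes with 1 symbol. Red points are genes with all 4 E2 mice above all 3 HD mice, blue points the reverse, grey points overlap, and the dotted line is the median of all values (4.61). Red points reach 3.54 (Il1b) while blue points end at -1.20 (Etnppl).

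Olfm4, which encodes a secreted glycoprotein of mucosal epithelia and neutrophils, had the smallest p among genes higher in E2. It read 9.04, 9.38, 7.89 and 6.89 in the 4 E2 mice and 4.84, 4.90 and 5.13 in the 3 HD mice, against 4.94 ± 0.23 (SD, n = 3) in CON and 9.78 ± 0.60 (SD, n = 3) in MIX. The HD mice thus read as low as CON, close to background, and all E2 mice stood well above them. The difference was 3.29 (SE 0.47, 9.76-fold, adjusted p = 0.76 in limma), and 2.98 to 3.90 over the alternatives. Krt13, a keratin of stratified mucosa, read 9.30, 8.35, 7.92 and 8.65 in E2 and 6.53, 6.76 and 6.76 in HD. The groups did not overlap, and the difference was 1.87 (SE 0.36). Csf1, the growth factor of macrophages, read 7.46, 8.43, 7.89 and 7.63 in E2 and 6.53, 6.99 and 6.78 in HD, a difference of 1.06 (SE 0.24). Isg20, an interferon-induced exonuclease, read 7.83, 7.87, 7.48 and 7.96 in E2 and 6.99, 7.19 and 7.09 in HD. Its difference of 0.69 (SE 0.15) was small but well outside the spread of both groups.

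The other genes of smallest p higher in E2 differed by less than 1. Muc16, a large membrane mucin of the epithelial and mesothelial surface, read 6.68, 6.46, 5.78 and 6.26 in E2 and 5.50, 5.17 and 5.47 in HD. Fam180a read 7.66, 7.40, 7.03 and 7.03 in E2 and 6.37, 6.55 and 6.62 in HD. Mfge8, whose secreted product bridges dying cells to phagocytes, differed by 0.91 (SE 0.23). Tanc2, a scaffold protein of cell junctions, showed the tightest values, at 5.97, 6.08, 5.86 and 5.90 in E2 and 5.68, 5.67 and 5.65 in HD. Reep6, a protein of the endoplasmic reticulum membrane, read 8.84, 8.80, 8.84 and 8.94 in E2 and 8.22, 8.10 and 8.57 in HD. For Reep6 the HD mice were the low ones, since CON averaged 8.98 and MIX 9.12. The small heat shock protein gene Cryab was also lowest in HD, with means of 7.98 in E2, 7.48 in HD, 7.75 in CON and 8.05 in MIX. All 10 genes of smallest p kept their separation after centring and after quantile normalization.

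**Figure D2:**
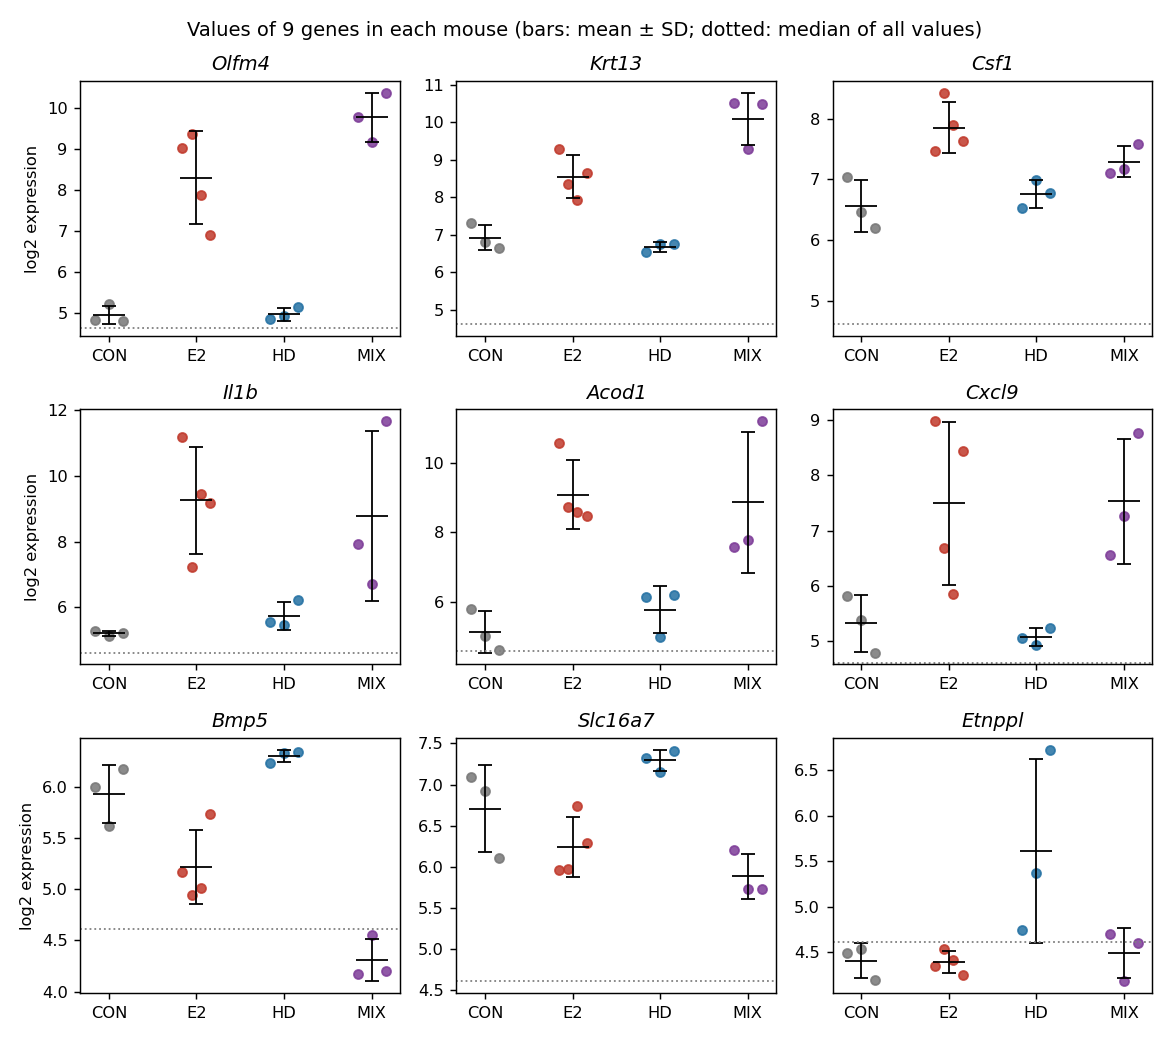
Log2 expression of 9 genes in every mouse of the 4 groups. Points are mice, bars are mean ± SD, and the dotted line is the median of all values (4.61). In the upper 6 genes all E2 mice lie above all HD mice, and in the lower 3 all HD mice lie above all E2 mice. The limma difference between the groups, E2 minus HD, is 3.29 in Olfm4 and -1.06 in Bmp5.

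The 10 largest differences toward E2 included Olfm4, and several of the genes were widely spread among the E2 mice. Il1b, the cytokine interleukin 1 beta, read 11.2, 7.22, 9.45 and 9.18 in E2 and 5.54, 5.46 and 6.22 in HD, a difference of 3.54 (SE 1.11). S100a8, a subunit of the neutrophil protein calprotectin, read 9.91, 6.13, 6.75 and 7.59 in E2 and 4.35, 3.62 and 4.64 in HD, so its HD values lay at or below background. Its partner S100a9 differed by 3.09 (SE 1.10). Acod1, the enzyme that makes itaconate, read 10.6, 8.72, 8.57 and 8.47 in E2 and 6.15, 5.01 and 6.20 in HD, a difference of 3.27 (SE 0.85). E2 replicate 1 was the highest E2 mouse for each of these 4 genes, and without it the differences were 2.88 for Il1b, 2.61 for S100a8, 2.41 for S100a9 and 2.80 for Acod1. The chemokine genes Cxcl2 (2.73, SE 1.03), Ppbp (2.56, SE 0.97) and Cxcl9 (2.45, SE 0.74), the surface protein gene Psca (2.59, SE 0.85) and the Schlafen gene Slfn4 (2.42, SE 0.92) were the others. None overlapped between the groups under the deposited, centred or quantile scaling. Without E2 replicate 1 the Ppbp difference was 1.75. When 1 mouse was left out, Psca ran from 2.00 to 3.64, Cxcl2 from 2.16 to 3.36, Slfn4 from 1.98 to 3.02 and Cxcl9 from 1.92 to 2.97.

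Toward HD the differences were smaller in size, while 477 genes had an unadjusted p under 0.05 in that direction and 370 toward E2 in limma. Bmp5, a ligand of the bone morphogenetic protein family, had the smallest p of all features. It read 6.23, 6.33 and 6.35 in HD and 5.17, 4.94, 5.01 and 5.74 in E2, with 5.93 ± 0.28 (SD, n = 3) in CON and 4.31 ± 0.21 (SD, n = 3) in MIX. The 3 HD mice lay above the other 10 mice, and the difference from E2 was -1.06 (SE 0.15, 2.08-fold, adjusted p = 0.76 in limma), ranging from -1.24 to -0.97 over the alternatives. Slc16a7, a carrier of pyruvate and ketone bodies, read 7.33, 7.15 and 7.41 in HD and 5.96, 5.98, 6.74 and 6.29 in E2, a difference of -1.07 (SE 0.25). It too was above all other mice in HD. Plxna2, a receptor for semaphorins, read 6.83, 6.88 and 7.18 in HD and 6.12, 6.33, 6.17 and 6.12 in E2, a difference of -0.77 (SE 0.18). Here CON (6.62) and MIX (6.57) lay between the groups.

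Hspa2, a member of the heat shock protein 70 family, read 5.78, 6.04 and 5.83 in HD and 5.54, 5.60, 5.64 and 5.44 in E2, where it was lower than in the other 9 mice. Dsel, an enzyme-like protein of dermatan sulfate synthesis, differed by -0.64 (SE 0.16), and Hs3st3b1, which adds sulfate to heparan sulfate, by -0.39 (SE 0.10). The endosomal sodium-proton exchanger gene Slc9a9 differed by -0.76 (SE 0.20), the membrane protein gene Vsig10 by -0.47 (SE 0.12), Fam83c by -0.70 (SE 0.18) and the carotenoid-cleaving enzyme gene Bco2 by -0.31 (SE 0.08). Of these 10 genes, Bco2 alone overlapped after centring or quantile normalization.

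Etnppl, a lyase that breaks down phosphoethanolamine, had the largest difference toward HD at -1.20 (SE 0.35). It read 4.75, 5.37 and 6.73 in HD and 4.35, 4.54, 4.42 and 4.25 in E2, with 4.41 in CON and 4.49 in MIX, so HD was the only group with a mean above 4.61. The difference was -0.61 without HD replicate 3. Myo3b, a myosin, read 8.69, 8.58 and 8.11 in HD and 6.69, 7.73, 7.53 and 7.89 in E2 (-0.99, SE 0.27). Cftr, the chloride channel that moves uterine fluid, read 9.17, 9.14 and 9.61 in HD and 8.61, 8.48, 8.38 and 8.17 in E2 (-0.89, SE 0.37). The Rab27 effector gene Sytl5 differed by -0.996 (SE 0.34), the urea transporter gene Slc14a1 by -0.89 (SE 0.47), Rapgefl1 by -0.89 (SE 0.35), Tmem200b by -0.85 (SE 0.38) and Plxdc1 by -0.85 (SE 0.26; -0.55 without HD replicate 3). The Slc14a1 difference shrank to -0.44 without E2 replicate 4, and its groups overlapped after quantile normalization, as did those of Rapgefl1 after either rescaling.

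Genes used as reporters of estradiol in the uterus gave a divided picture. Ltf, which encodes lactoferrin, read 12.7, 12.6, 12.9 and 12.4 in E2 and 12.2, 12.7 and 13.1 in HD, a difference of -0.03 (SE 0.23). Lcn2, an iron-binding secretory protein, read 11.8, 12.0, 11.9 and 11.4 in E2 and 11.5, 12.0 and 12.2 in HD (-0.14, SE 0.20). Both were high in mice without a pellet, CON included (12.2 for Ltf), and their groups overlapped. The sign of the Ltf difference turned with centring of the arrays (0.02), and those of Ltf and Lcn2 turned without HD replicate 3 (0.26 and 0.14). Of 30 measured estradiol-induced secretory genes 14 were higher in E2 and 16 lower, with a median of -0.03 (-0.005 over all genes). Yet 7 of the 30 (23.3%) were higher in every E2 mouse than in every HD mouse, against 2.2% of all genes, and 1 was lower throughout. The 7 were Olfm4, the calcium-activated chloride channel regulator genes Clca3a1 and Clca3a2, the small proline-rich genes Sprr2d and Sprr2g, the glutathione peroxidase gene Gpx2 and the proton pump subunit gene Atp6v0d2. Sprr2g read 6.95, 6.46, 5.60 and 5.97 in E2 and 5.06, 4.87 and 4.74 in HD (1.31, SE 0.46), with 5.59 in CON and 5.31 in MIX. Clca1, another secreted regulator of the same family as Clca3a1, lay the other way (-0.69, SE 0.30), as did the citrullinating enzyme gene Padi1 (-1.04, SE 0.56), at -0.65 without E2 replicate 4 and -0.52 without HD replicate 3. Gjb2, the gap junction gene lower in all E2 mice, was lowest in E2 replicate 2 (7.98) and read 9.16 to 9.29 in HD.

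The receptors showed no clear difference. For the counts without overlap, the shares of all genes were 2.2% toward E2 and 2.12% toward HD. Esr1, the estrogen receptor, read 8.68, 9.16, 8.87 and 9.13 in E2 and 9.16, 9.14 and 9.35 in HD (-0.24, SE 0.24). Pgr, the progesterone receptor and itself an estradiol target, read 9.43, 9.69, 10.1 and 10.6 in E2 and 10.6, 9.94 and 9.21 in HD (0.04, SE 0.40). Both groups overlapped for these genes, and the sign for Pgr turned without HD replicate 3 (-0.52). Of 26 measured steroid and nuclear receptors and cofactors 13 were higher in E2, and the sole member without overlap was Nrip1, a corepressor, lower in E2 (-0.34, SE 0.17). The retinoic acid receptor Rarg (-0.26, SE 0.10) and its partner Rxra (-0.23, SE 0.10) had the smallest p of the list toward HD, with overlapping groups for both. Among 29 progesterone response and stromal receptivity genes 14 were higher in E2 and 1, the activin antagonist gene Fst, did not overlap. The homeobox gene Msx2 (-0.51, SE 0.21) and the zinc finger gene Zbtb16 (0.64, SE 0.31) marked the ends of smallest p.

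Few growth genes were separated between the groups when taken singly, where 2.2% of all genes were free of overlap toward E2 and 2.12% toward HD. Of 26 early estradiol response genes 19 were higher in E2, with a median of 0.16, and Cdkn1a, the cell cycle inhibitor p21, was the 1 without overlap (0.74, SE 0.39; 0.48 without E2 replicate 4). The mean of the early response list was 7.87 to 8.06 in E2 and 7.69 to 7.83 in HD, without overlap. It was 7.67 to 8.11 in CON. All 38 measured replication and mitosis genes had a higher mean in E2, with a median of 0.47, but 0 of them were free of overlap and 0 had an unadjusted p under 0.05. The mean level of these genes in a mouse was 7.99, 6.08, 8.05 and 7.96 in E2 and 8.12, 6.71 and 6.15 in HD, so that 1 E2 mouse was low and 1 HD mouse was high for all of them together. When 1 mouse was left out the median ranged from 0.06 (E2 replicate 4) to 1.08 (HD replicate 1), with 0.11 for HD replicate 3, 0.24 for HD replicate 2 and 1.03 for E2 replicate 2. In the mice with numbered codes alone it was -0.03. Of 23 cyclin, CDK and CDK inhibitor genes 19 were higher in E2 (median 0.15; -0.01 without E2 replicate 4, 0.05 without HD replicate 3, and 0.27 when either HD replicate 1 or E2 replicate 2 was left out), and Cdkn1a was again the 1 without overlap. The cyclin D2 gene Ccnd2 differed by 0.88 (SE 0.35), by 0.38 without E2 replicate 4, which read 8.89, and by 0.43 without HD replicate 3. Of 38 growth factor ligands and receptors 22 were higher in E2 and 0 were free of overlap, with Igf1 at 0.70 (SE 0.52; 0.37 without E2 replicate 4) and Erbb2 at -0.57 (SE 0.24). In the Wnt and BMP list of 47 genes, Bmp5 and the signal inhibitor Smad7 were lower in all E2 mice and Dkk3, Chrdl1 and Rspo1 higher.

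Genes that answer to dietary fat were largely alike in level. Of 36 fatty acid oxidation and PPAR target genes 16 were higher in E2 (median -0.03), of 29 lipid uptake, storage and lipolysis genes 15 (median 0.01), and of 21 fatty acid synthesis genes 11 (median 0.02), where 47.6% of all genes were higher. The members without overlap were 1 in each list, Vnn1, G0s2 and Fads1, each higher in E2. Among all genes 2.2% were free of overlap in that direction. Cpt1a, which brings fatty acids into mitochondria, read 9.63, 9.44 and 10.2 in HD and 9.20, 9.79, 8.98 and 8.97 in E2 (-0.52, SE 0.23), and the value was -0.24 without HD replicate 3. Pdk4, a switch from glucose to fat burning, differed by -0.23 (SE 0.32; -0.12 without E2 replicate 4). Scd1, the desaturase that forms monounsaturated fatty acids, read 8.11, 7.69, 8.52 and 8.71 in E2 and 8.05, 7.21 and 7.20 in HD (0.79, SE 0.32), with 8.41 in CON, and it was 0.47 without HD replicate 3. Fads1, the desaturase of polyunsaturated fatty acids, read 7.24, 7.19, 6.93 and 7.38 in E2 and 6.63, 6.49 and 6.33 in HD (0.71, SE 0.29), where the HD mice lay below the other 10. The lipase gene Lipe (-0.44, SE 0.18; -0.24 without HD replicate 3) and the carboxylase gene Acacb (-0.55, SE 0.25; -0.31 without E2 replicate 4) lay toward HD with overlapping groups. Of 17 cholesterol synthesis genes 12 were higher in E2 and 0 were free of overlap. Of 26 cholesterol efflux and lysosomal genes 21 were higher in E2 (median 0.09), with the lysosomal lipase gene Lipa (0.50, SE 0.23) and Npc2 free of overlap. The glucose transporter gene Slc2a3 (0.94, SE 0.44) was the only member without overlap among 32 glycolysis and hypoxia genes. The respiratory chain list of 39 genes had a median of -0.001 and no member without overlap.

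Chemokine and cytokine genes had many members higher in every E2 mouse. Of 37 measured chemokines and receptors 32 were higher in E2, with a median of 0.47, and 12 (32.4%) were free of overlap, all toward E2. Their names, listed after the values were seen, are Ccl5, Ccl17, Ccl22, Cxcl2, Cxcl3, Cxcl5, Cxcl9, Cxcl10, Cxcl13 and the receptor genes Ccr1, Cxcr2 and Cxcr6. Of 34 cytokines and receptors 27 were higher (median 0.29) and 10 (29.4%) were free of overlap, namely Il1b, its antagonist Il1rn, the decoy receptor gene Il1r2, Il33, Il12b, Tnf, Csf1, the receptor gene Csf3r, Tgfb2 and Tgfb3. The share over all genes was 2.2%. The mean level of the chemokine list was 6.84, 6.12, 6.34 and 6.42 in E2 and 5.69, 5.81 and 5.93 in HD, and that of the cytokine list 6.99, 6.33, 6.57 and 6.21 in E2 and 5.73, 5.91 and 6.08 in HD. Neither list overlapped between the groups, and HD lay near the CON range, which was 5.64 to 5.80 for chemokines. Such a separation was not particular to these lists. Of all 44 lists, 11 had a mean without overlap toward E2 and 0 toward HD, and the 11 included heat shock and adipokine genes. The counts of chemokine and cytokine members without overlap were 13 to 16 and 10 to 14 when 1 mouse was left out. The share over all genes was then 3.13% to 5.83%. The median of the cytokine list was 0.53 without HD replicate 3.

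Individual members differed in how they were spread. Cxcl10, an attractant of T cells, read 5.49, 4.43, 5.04 and 6.05 in E2 and 4.04, 4.14 and 4.30 in HD (1.13, SE 0.39), so that HD lay below background. Cxcl2, an attractant of neutrophils, read 9.91, 7.06, 8.66 and 6.78 in E2 and 5.06, 4.92 and 6.05 in HD. Tnf, a member chosen after its values were seen, read 9.15, 7.04, 9.20 and 6.69 in E2 and 5.88, 5.56 and 6.52 in HD (1.98, SE 0.72). Some members lay the other way with overlapping groups, among them the eosinophil attractant gene Ccl11 (-0.93, SE 0.74) and the interleukin 1 receptor gene Il1r1 (-0.62, SE 0.38). When 1 mouse was left out Ccl11 ranged from -1.50 (HD replicate 1) to -0.48 (E2 replicate 3), with -0.53 without HD replicate 2, and Il1r1 from -0.95 (E2 replicate 3) to -0.37 (E2 replicate 1). The receptor chain gene Il6ra had the smallest p among the remaining cytokine genes (0.46, SE 0.12) although 1 HD mouse reached into the E2 range.

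The promoters of these genes were searched because many members differed in the same direction. The windows are the 250 bases before the annotated start in RefSeq (GRCm38.p6), and 22 of the 25 chemokine, cytokine and interferon-induced genes without overlap had one. The letters GGGANNTTCC, a common form of the NF-kB site, were found on either strand in 7 of the 22 genes (31.8%) and in 1.36% of the 27025 genes of the table. The 7 were Csf1, Csf3r, Cxcl2, Cxcl3, Cxcl10, Ifit2 and Isg20. The interferon element letters GAAANNGAAA were found in 2 of 22 (9.09%, against 3.46%), the AP-1 letters TGANTCA in 2 of 22 (9.09%, against 7.82%), and the estrogen half-site GGTCA in 9 of 22 (40.9%, against 38.4%). No window of the 22 held the full palindrome GGTCANNNTGACC, which 0.0666% of all genes held, and every full palindrome also counts as a half-site. A match is a description of letters and not of binding. Members of these lists whose groups overlapped were not counted apart, so a link between the letters and the difference was not tested. The 4 windows shown are those of 3 genes with the NF-kB letters and of Olfm4, the gene of smallest p toward E2, read 5′ to 3′ on the strand of the gene. Capitals mark the matches: the NF-kB letters in Cxcl2 (on both strands, overlapping) and Csf1 (reverse strand), the interferon, NF-kB, half-site and AP-1 letters in that order in Cxcl10, and a half-site in Olfm4.
Cxcl2, chr5:90903649-90903898, plus strand: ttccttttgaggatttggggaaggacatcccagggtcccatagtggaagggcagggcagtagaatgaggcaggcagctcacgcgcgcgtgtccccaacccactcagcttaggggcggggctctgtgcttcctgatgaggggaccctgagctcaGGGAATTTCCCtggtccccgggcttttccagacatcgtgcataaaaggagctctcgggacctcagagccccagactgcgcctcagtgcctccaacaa
Cxcl10, chr5:92348890-92349139, minus strand: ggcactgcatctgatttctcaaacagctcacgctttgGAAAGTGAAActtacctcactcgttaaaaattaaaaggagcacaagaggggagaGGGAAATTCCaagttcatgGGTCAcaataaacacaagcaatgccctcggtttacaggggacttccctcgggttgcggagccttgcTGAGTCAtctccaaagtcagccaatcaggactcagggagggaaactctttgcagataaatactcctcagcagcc
Csf1, chr3:107760470-107760719, minus strand: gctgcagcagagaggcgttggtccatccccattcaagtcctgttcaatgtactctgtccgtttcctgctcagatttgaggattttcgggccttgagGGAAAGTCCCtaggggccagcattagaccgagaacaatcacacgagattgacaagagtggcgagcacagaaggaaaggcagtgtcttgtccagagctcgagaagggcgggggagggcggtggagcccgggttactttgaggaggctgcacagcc
Olfm4, chr14:80000052-80000301, plus strand: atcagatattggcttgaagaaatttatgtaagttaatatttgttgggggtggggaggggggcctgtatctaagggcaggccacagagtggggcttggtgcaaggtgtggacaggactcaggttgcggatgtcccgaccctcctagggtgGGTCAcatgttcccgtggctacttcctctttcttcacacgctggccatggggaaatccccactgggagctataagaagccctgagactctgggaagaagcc

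**Figure D3:**
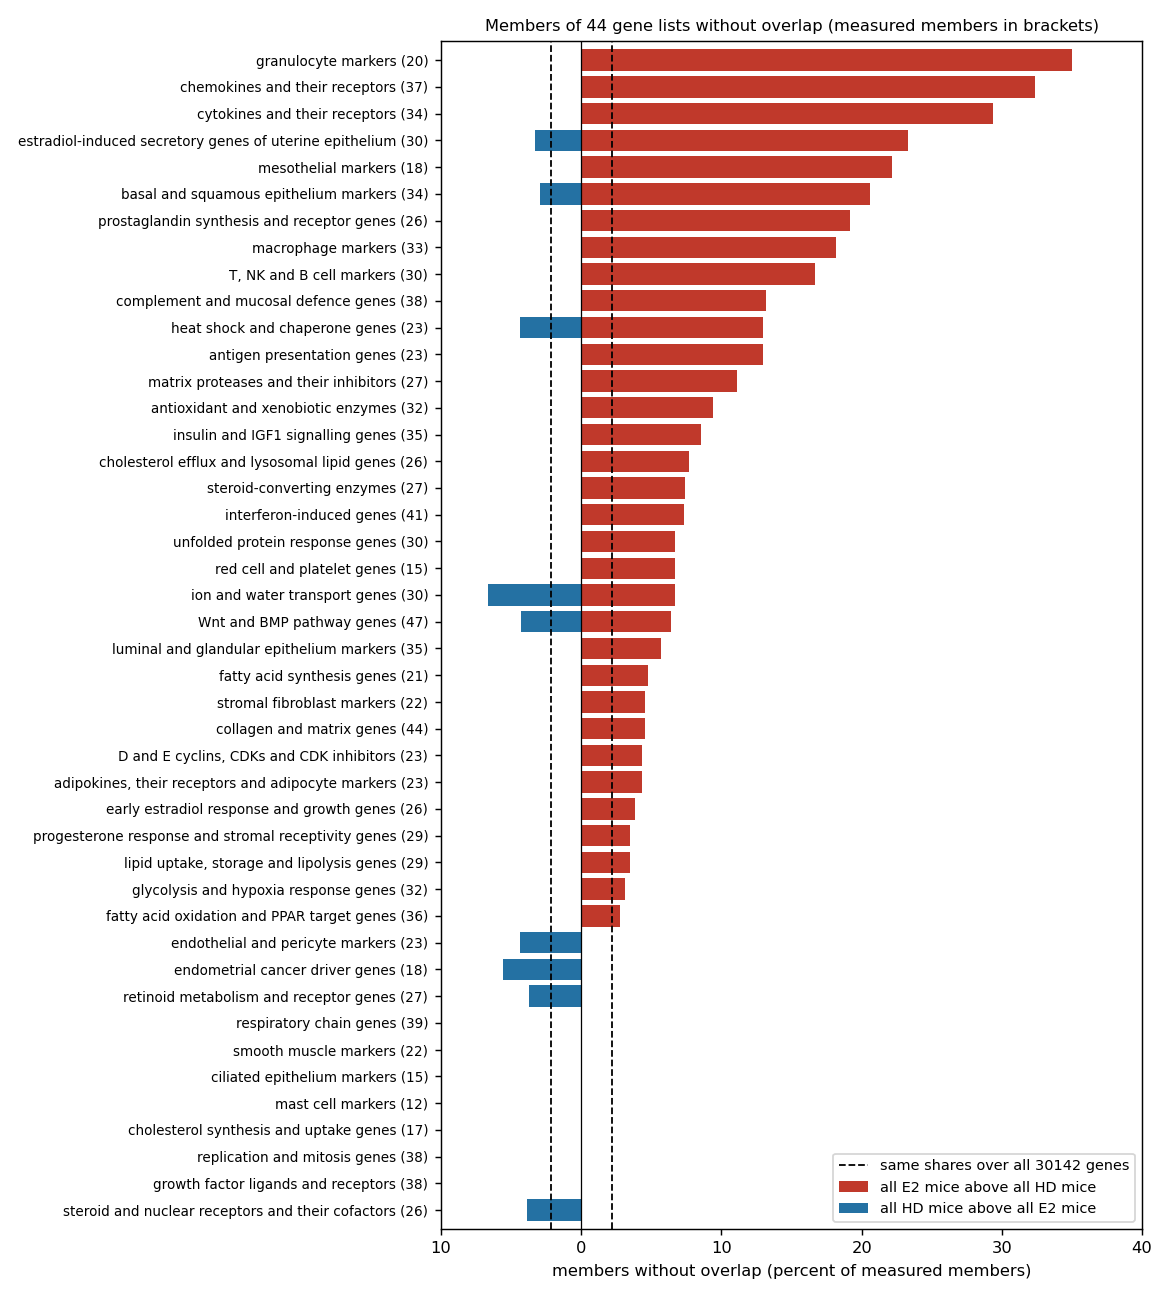
Share of the measured members of each of 44 gene lists that did not overlap between the 4 E2 and the 3 HD mice, to the right for E2 higher and to the left for HD higher. Dashed lines are the same shares over 30142 genes (2.2% and 2.12%). Granulocyte markers (35%), chemokines (32.4%) and cytokines (29.4%) reach farthest.

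Leukocyte markers lay in the same direction as the chemokines, where 2.2% of all genes were free of overlap toward E2. Of 20 measured granulocyte markers 14 were higher in E2 (median 0.49) and 7 (35%) were free of overlap: S100a8, S100a9, Csf3r, Cxcr2, Il1r2 and the lectin receptor genes Clec4d and Clec4e. Csf3r, Cxcr2 and Il1r2 are also members of the chemokine or cytokine lists. The neutrophil elastase gene Elane (-0.07, SE 0.09) and the eosinophil gene Prg2 (-0.11, SE 0.06) averaged below 4.61 in both groups, too low to show a difference. They were 2 of the 6 granulocyte markers lower in E2. The lowest difference in the list was -0.14, the value of Lcn2, which read far above background with overlapping groups. The list mean was 7.07, 5.51, 5.94 and 5.89 in E2 and 5.17, 5.29 and 5.40 in HD, with the median difference at 0.19 without E2 replicate 1 and a count of 11 without E2 replicate 2, when 3.92% of all genes were free of overlap. Of 33 macrophage markers 28 were higher in E2 (median 0.45) and 6 (18.2%) were free of overlap, Cd14, Fcgr3, Mertk, Ptprc, Cybb and Clec7a. Clec7a, a receptor for fungal glucans, read 9.54, 6.47, 7.84 and 7.46 in E2 and 6.39, 5.30 and 5.03 in HD (2.19, SE 0.80). Its difference ran from 1.69 to 2.71 when 1 mouse was left out. The common leukocyte marker Ptprc read 7.72, 6.49, 6.79 and 7.10 in E2 and 6.24, 6.28 and 5.89 in HD. Adgre1, a surface receptor of mature macrophages, averaged 7.04 in E2 mice and 6.65 in HD mice, with 5.61 in CON, and 1 E2 mouse lay within the HD range. The integrin gene Itgam lay the other way (-0.78, SE 0.62), at -0.01 without HD replicate 3, -0.41 without E2 replicate 4 and -1.48 without HD replicate 1. The macrophage count was 20 without E2 replicate 2 and 18 without HD replicate 1, when the shares over all genes were 3.92% and 4.7%. The macrophage list mean was 6.94 to 7.57 in E2 and 6.71 to 6.96 in HD, so E2 replicate 2 lay within the HD range for these markers. Their part in the cytokine result was not tested.

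Lymphocyte markers had a smaller median difference than granulocyte and macrophage markers. Their list mean, 5.173 to 5.435 in E2 and 4.948 to 5.07 in HD, did not overlap between the groups. Of 30 T, NK and B cell markers 27 were higher in E2 (median 0.21) and 5 (16.7%) were free of overlap, the T cell gene Cd3e, Cd2, Il2rb, the cytotoxic granule gene Nkg7 and the antibody chain gene Jchain. The count was 8 without HD replicate 3, when 5.83% of all genes were free of overlap, against 2.2% with all mice. The granzyme gene Gzmb read 4.72, 5.86, 5.05 and 7.16 in E2 and 4.62, 4.74 and 4.75 in HD, so that the HD mice were at background and 1 E2 mouse overlapped them. Its difference of 1.04 (SE 0.51) was 0.40 without E2 replicate 4. Of 12 mast cell markers 0 were free of overlap, and the histidine decarboxylase gene Hdc, which makes histamine, differed by 1.16 (SE 0.61; 0.68 without E2 replicate 4).

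Interferon-induced genes were higher in E2 as a group but were not separated mouse by mouse. Of 41 measured genes 40 were higher in E2 and the median was 0.61, the highest of the 44 lists, while 3 (7.32%) were free of overlap, Gbp7, Ifit2 and Isg20. The list mean was 8.13, 7.47, 7.61 and 9.09 in E2 and 6.94, 7.45 and 7.89 in HD, so HD replicate 3 lay above 2 of the 4 E2 mice. The median was 0.27 without E2 replicate 4, and 19 members were free of overlap without HD replicate 3, when 5.83% of all genes were. The count was 7 without E2 replicate 2 and 5 without HD replicate 2. The shares over all genes were then 3.92% and 3.68%, against 2.2% with all mice. Gbp7, a guanylate-binding protein, read 9.43, 8.32, 8.36 and 9.74 in E2 and 7.56, 7.81 and 8.26 in HD (1.13, SE 0.29). All 23 measured antigen presentation genes were higher in E2 (median 0.26). The 3 without overlap (13%) were the class II genes H2-Aa, H2-Ab1 and H2-Eb1. H2-Ab1 read 9.60, 8.87, 9.78 and 9.65 in E2 and 8.66, 8.43 and 8.26 in HD (1.01, SE 0.34). H2-Eb1 read 8.35, 7.62, 8.26 and 8.36 in E2 and 7.33, 7.10 and 7.22 in HD (0.93, SE 0.34). The median of the list was 0.09 without E2 replicate 4 and 0.44 without E2 replicate 2. Without E2 replicate 2 or without HD replicate 3, 11 members were free of overlap, when 3.92% and 5.83% of all genes were. Of 38 complement and mucosal defence genes 28 were higher in E2 (median 0.25) and 5 (13.2%) were free of overlap, C1ra, C1rb, C2, the complement inhibitor gene Serping1 and Acod1. That count ran from 6 to 11 when 1 mouse was left out, when the share over all genes was 3.13% to 5.83%. It was highest for E2 replicate 2, with 10 for HD replicate 1, 9 for E2 replicate 4 and 8 for HD replicate 2. The median was 0.15 without E2 replicate 1 or E2 replicate 3, and 0.39 without HD replicate 3.

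**Figure D4:**
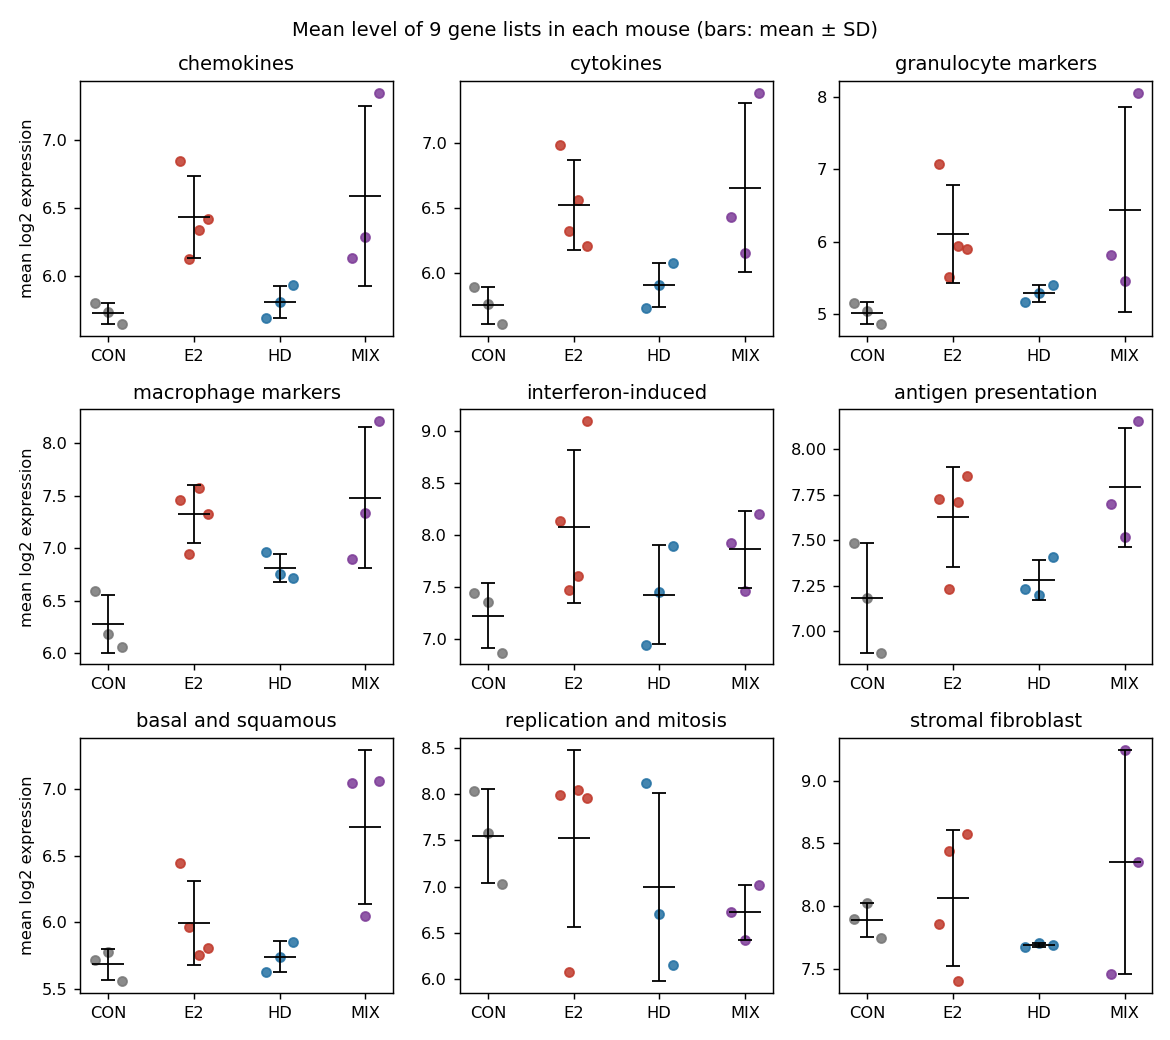
Mean log2 expression of the measured members of 9 gene lists in every mouse of the 4 groups. Points are mice and bars are mean ± SD. Chemokines, cytokines and granulocyte markers separate E2 from HD in every mouse, interferon-induced genes and antigen presentation genes overlap, and for replication genes E2 replicate 2 (6.08) lies below all HD mice. Of all 44 lists, 11 have a mean without overlap toward E2 and 0 toward HD.

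Epithelial and stromal markers split by type, where 2.2% of all genes were free of overlap toward E2. Of 35 luminal and glandular epithelium markers 16 were higher in E2 (median -0.05), with Muc16 and the gland factor gene Foxa2 free of overlap. Of 34 basal and squamous markers 24 were higher (median 0.11) and 7 (20.6%) were free of overlap, Trp63, Krt5, Krt14, Krt15, Krt13, the desmosome gene Pkp1 and the cross-linking enzyme gene Tgm1. Krt5, the keratin of basal cells, read 10.2, 9.01, 8.45 and 9.01 in E2 and 7.55, 7.51 and 7.05 in HD (1.75, SE 0.49). Trp63, the transcription factor of basal cells, read 4.60, 4.60, 4.51 and 4.62 in E2 and 4.39, 4.39 and 4.50 in HD, all at background, and its groups overlapped after centring and after quantile normalization. Itgb4, an integrin of the basement membrane contact, lay the other way (-0.45, SE 0.17; -0.29 without HD replicate 3). The squamous count was 13 without HD replicate 3, when 5.83% of all genes were free of overlap, and the median was 0.06 without E2 replicate 1, 0.04 without HD replicate 1 and 0.16 without HD replicate 3. Of 18 mesothelial markers 14 were higher in E2 (median 0.38) and 4 (22.2%) were free of overlap, Muc16, Rspo1, Bnc1 and Gpm6a, the last at 9.45, 8.80, 8.34 and 8.53 in E2 and 8.05, 8.30 and 7.80 in HD. The count was 11 without E2 replicate 3 and 6 without HD replicate 3, when the shares over all genes were 4.15% and 5.83%, and the median was 0.23 without E2 replicate 1. Of 22 stromal fibroblast markers 21 were higher in E2 (median 0.37) and 1, Vim, was free of overlap, though not after centring. Their mean was 7.86, 8.44, 7.40 and 8.58 in E2 and 7.67, 7.71 and 7.69 in HD, a wide spread in E2 around a narrow one in HD. The stromal median was 0.19 without E2 replicate 4. With 1 mouse left out the stromal count ran from 1 to 8, when the share over all genes was 3.13% to 5.83%. It was 8 for E2 replicate 3, 5 for HD replicate 1, 3 for HD replicate 2, and 2 for HD replicate 3 as for E2 replicate 4.

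Matrix and tissue remodelling genes followed with fewer members. Of all genes, 2.2% were free of overlap toward E2 and 2.12% toward HD. Of 44 collagen and matrix genes 36 were higher in E2 (median 0.13), with Col14a1 and the matricellular gene Thbs1 free of overlap. Thbs1 read 9.87, 8.98, 8.87 and 9.49 in E2 and 8.40, 7.97 and 7.97 in HD (1.18, SE 0.38). The collagen median was -0.04 without E2 replicate 4, 0.04 without HD replicate 1 and 0.30 without E2 replicate 3. Of 27 matrix proteases and inhibitors 24 were higher (median 0.18; 0.31 without HD replicate 3) and 3 were free of overlap, Mmp12, Timp1 and the urokinase receptor gene Plaur. The protease gene Adamts1 differed by 1.17 (SE 0.51), with E2 replicate 1 (5.96) inside the HD range. The smooth muscle list of 22 and the ciliated cell list of 15 had no member without overlap, and their medians were -0.01 and -0.004. Of 23 endothelial and pericyte markers 18 were higher in E2, with the receptor gene Notch3 alone without overlap, toward HD, though not after rescaling. Of 15 red cell and platelet genes 7 were higher in E2, with Ppbp without overlap, and of 18 endometrial cancer driver genes 6 were higher, with Zfhx3 without overlap toward HD.

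Prostaglandin genes held several members without overlap. Of 26 measured genes 16 were higher in E2 (median 0.12; 0.06 without E2 replicate 4, 0.07 without E2 replicate 1) and 5 (19.2%) were free of overlap, against 2.2% of all genes. Ptgs2, the inducible cyclooxygenase that starts prostaglandin synthesis, read 10.4, 9.84, 9.67 and 8.38 in E2 and 7.67, 6.79 and 7.31 in HD (2.24, SE 0.96). Ptgs2 was chosen after its values were seen. The others were the synthases Ptges and Hpgds, the exporter Abcc4 (0.65, SE 0.18) and the lipoxygenase Alox12 (0.72, SE 0.24). Alox12 read 6.79, 6.30, 6.16 and 6.23 in E2 and 5.63, 5.56 and 5.78 in HD, where HD was below the other 10 mice. The prostaglandin receptor gene Ptger4 lay toward HD (-0.61, SE 0.33). Of 30 ion and water transport genes 20 were higher in E2, with the chloride channel gene Ano1 (0.81, SE 0.23) and the anion exchanger gene Slc26a4 higher in all E2 mice and Cftr and Slc9a9 lower in all. Ano1 read 8.61, 8.38, 7.84 and 8.76 in E2 and 7.73, 7.64 and 7.40 in HD, the opposite order of Cftr.

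Stress and detoxification genes held a few separated members. The share of all genes without overlap was 2.2% toward E2 and 2.12% toward HD. Of 23 heat shock genes 20 were higher in E2 (median 0.14; 0.04 without HD replicate 3, 0.08 without E2 replicate 4, 0.23 without HD replicate 2 and 0.25 without HD replicate 1), with Cryab, Hspb8 and Hspa4l (0.44, SE 0.15) free of overlap toward E2 and Hspa2 toward HD. Of 30 unfolded protein response genes 27 were higher (median 0.16; 0.07 without HD replicate 1), with the stress factor gene Atf3 (0.67, SE 0.26) and Creld2 (0.26, SE 0.09) free of overlap. Of 32 antioxidant and xenobiotic genes 23 were higher (median 0.17; 0.10 without E2 replicate 1), with Gpx2 (1.08, SE 0.43), the plasma glutathione peroxidase gene Gpx3 (1.16, SE 0.36) and Fmo2 free of overlap. Gpx3 read 9.07, 10.1, 8.28 and 8.30 in E2 and 7.77, 7.94 and 7.53 in HD. Nqo1, a quinone reductase, lay toward HD (-0.86, SE 0.51) and was -0.53 without E2 replicate 2. Of 35 insulin and IGF1 signalling genes 18 were higher in E2 and 3 were free of overlap, Igfbp7, Ptpn1 and Eif4ebp1 (0.33, SE 0.09), a brake on translation that read 7.75, 7.97, 7.60 and 7.72 in E2 and 7.40, 7.49 and 7.39 in HD. Of 23 adipokine and fat cell genes 14 were higher in E2, and Nampt (0.68, SE 0.25) was free of overlap, though not after quantile normalization. Of 27 steroid-converting enzymes 16 were higher in E2, with Star (0.45, SE 0.20; 0.24 without E2 replicate 1) and Cyp7b1 (0.41, SE 0.28; 0.18 without E2 replicate 1) free of overlap, the latter not after rescaling. Of 27 retinoid genes 11 were higher in E2 and Bco2 was the 1 without overlap.

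Unnamed features lay more often toward HD than genes did in the deposited scaling. Of 33179 unnamed features 328 were higher in all E2 mice (0.989%, against 1.56% of all features). In all HD mice 1339 were higher (4.04%, against 3.07%), and the median difference of unnamed features was -0.04 (-0.02 over all features). Centring turned the counts over all features from 1030 and 2021 to 2587 and 1014. Unnamed features were not counted apart after rescaling, so their lean may depend on the scaling. Of 681 features named for a microRNA 211 (31%) were higher in E2, against 40.7% of all features, with a median of -0.06 where centring of the arrays moved the median of all features from -0.021 to 0.029. Of the 681, 8 were free of overlap toward E2 and 20 toward HD (2.94%, near the 3.07% of all features). The array measures the transcript around a hairpin and not the mature microRNA alone. A pair of families is shown because several members lay toward HD, a choice made after the values were seen. The members of the miR-181 family share the seed in capitals (bases 2 to 8), as do those of the miR-99 and miR-100 family, in RefSeq's mature sequences.
miR-181a-5p: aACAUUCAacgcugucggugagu
miR-181b-5p: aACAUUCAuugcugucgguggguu
miR-181c-5p: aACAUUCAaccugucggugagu
miR-181d-5p: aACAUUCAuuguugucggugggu
miR-99a-5p: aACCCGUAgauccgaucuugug
miR-99b-5p: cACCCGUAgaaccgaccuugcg
miR-100-5p: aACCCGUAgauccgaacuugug

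Of the miR-181 features, Mir181a-2 read 4.96, 5.01 and 5.51 in HD and 4.49, 4.27, 4.54 and 4.71 in E2 (-0.61, SE 0.25). Mir181b-2, in the same cluster on chromosome 2, read 5.25, 5.04 and 5.64 in HD and 4.76, 4.53, 4.90 and 4.52 in E2 (-0.63, SE 0.26). Mir181c differed by -0.19 (SE 0.10) without overlap, and Mir181d by -0.17 (SE 0.12) with overlap. Left out 1 at a time, HD replicate 3 gave -0.04 for Mir181d, E2 replicate 4 gave -0.09 and HD replicate 1 gave -0.29. These levels are close to background for the chromosome 2 pair. Mir181a-1 and Mir181b-1 on chromosome 1 encode the same mature miR-181a-5p and miR-181b-5p. Their values are not given here, so the family as a whole is not described. Mir100 read 6.21, 5.78 and 5.80 in HD and 4.86, 5.08, 5.14 and 5.68 in E2 (-0.69, SE 0.34; -0.42 without HD replicate 1 and -1.04 without HD replicate 3), and its host transcript Mir100hg read 7.11, 6.64 and 6.35 in HD and 5.39, 5.70, 5.96 and 5.97 in E2 (-0.92, SE 0.29). Mir99a differed by -0.85 (SE 0.47; -0.53 without E2 replicate 1 or HD replicate 2) with overlapping groups and Mir99b by 0.02 (SE 0.10), so the shared seed did not go with a shared direction in that family.

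The other mice give the order of the 4 groups. Of the 664 genes without overlap toward E2, HD had the lowest of the 4 group means in 365, E2 the highest in 191 and MIX the highest in 447. Over all 30142 genes these numbers were 5075, 6161 and 7749. Among the 640 toward HD, HD had the highest mean in 450 and E2 the lowest in 303, against 7732 and 4700 over all genes. Choosing genes with E2 apart from HD itself raises such counts, so they are a description only. Among all 30142 genes, 181 were higher in the 7 mice with a pellet than in the 6 without (0.6%) and 53 were lower (0.176%). Of the genes shown above, Olfm4, Krt13, Csf1, Il1b, S100a8, Acod1, Cxcl9, Krt5, Thbs1, Ano1 and Gpx3 were among the 181, and Hs3st3b1 and Myo3b among the 53. The 3 HD mice lay above the other 10 in 85 genes (0.282%), among them Bmp5, Slc16a7, Dsel, Etnppl and Cftr, and below them in 49 (0.163%), among them Reep6, Cryab, Fads1 and Alox12. The 4 E2 mice lay above the other 9 in 14 genes (0.0464%) and below them in 16 (0.0531%), among them Hspa2, Itgb4 and Notch3. Shares of this size were not compared with relabelings of the 13 mice.

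MIX and CON share no mouse with E2 and HD, and they differ by the pellet and the diet together. Of the 664 genes higher in E2 without overlap, 591 (89%) had a higher mean in MIX than in CON, where 41.6% of all genes did, and in 263 (39.6%) the MIX mice lay above all CON mice, where 7.68% of all genes did. Of the 640 genes higher in HD, 488 (76.2%) had a lower mean in MIX than in CON, against 58.4% of all genes, and 111 (17.3%) were lower without overlap, against 12%. All 10 genes of largest difference toward E2 were higher in every MIX mouse than in every CON mouse. Of the 10 of smallest p toward HD, 6 had a lower mean in MIX than in CON. Sprr2g and Hspa2 went the other way, with Sprr2g lower in MIX than in CON and Hspa2 higher. All arrays were processed together by RMA, and all 3 MIX mice have lettered animal codes, so these shares are a description.

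**Figure D5:**
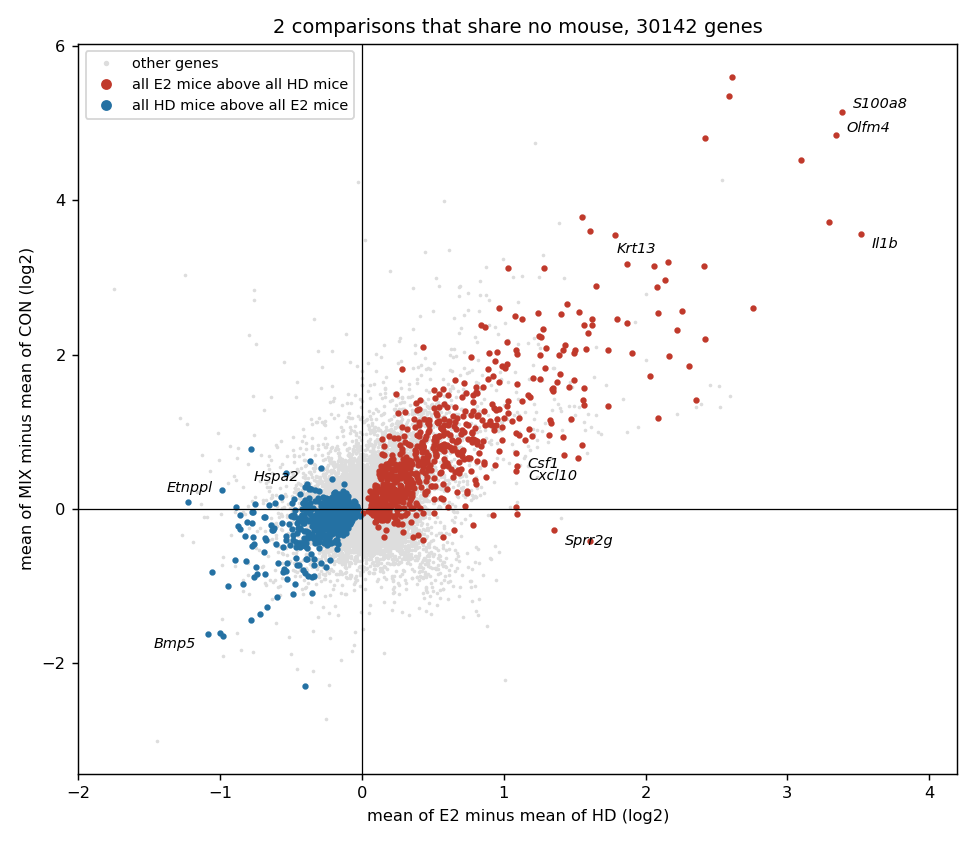
Difference of group means E2 minus HD (horizontal, log2) and MIX minus CON (vertical, log2) for 30142 genes, from 2 pairs of groups that share no mouse. Of the red genes, higher in all E2 than in all HD mice, 89% lie above 0 on the vertical axis, and of the blue genes, higher in all HD mice, 76.2% lie below it.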

How the data were processed

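Endometrial RNA of 13 mice was measured on 1 mouse array each. The deposited log2 values had been summarised and normalized across arrays by RMA, a tool that the submitters' processing notes name without a version. No scanner intensities were used here. Of 65929 features 30604 had 1 gene symbol, 2146 several and 33179 none, and each of 30142 symbols was read from its feature of highest mean.

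limma 3.58.1 in R 4.3.3 fitted all 13 mice with 4 group terms and a term for the style of the animal code (numbered or lettered), and took E2 minus HD, with Benjamini-Hochberg adjustment over all features and a threshold of 0.05. SE and p come from that fit, and the scripts were tested on simulated data. The labels do not say whether mice shared litters or cages, so p-values measure the spread between these mice, and the number of arrays limits the precision.

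The comparison and the 44 gene lists were chosen with earlier results of these data known, so lists carry counts and medians and no test. Genes were named by rule: the 10 of smallest p and the 10 of largest difference in each direction among those without overlap, up to 2 per direction in each list, and 13 set genes; others are said to be chosen after their values were seen, or are named to complete a count. A list mean is the mean log2 value of its measured members. Promoter windows and mature microRNAs come from RefSeq (GRCm38.p6), matched by symbol for 30 of 37 ranked genes. Alternatives changed the samples, covariate, filter, variance prior, weights, scaling and feature choice, and left out each mouse.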

Additional observations from a re-analysis of the deposited data

Results flagged for a closer look

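Among the 4 E2 mice, 12 of 153 sets of values (109 genes and 44 list means) had a mouse far from the other 3 by Dixon's test, where chance gives about 1 in 20. E2 replicate 1 was the high mouse for Acod1 (10.57, next 8.72) and for the mean of the matrix proteases (6.97, next 6.81). E2 replicate 2 was the low mouse for the mean of the replication and mitosis genes (6.08, next 7.96) and for the class II gene H2-Eb1 (7.62, next 8.26). E2 replicate 3 was the low mouse for Igf1 (7.05, next 8.12), Itgb4 (7.65, next 8.04) and the mean of the antioxidant enzymes (7.79, next 8.01). E2 replicate 4 was the high mouse for Ccnd2 (8.89, next 7.82) and the Wnt and BMP genes (6.98, next 6.80). It was the low mouse for Mir181c (5.98, next 6.22), Prg2 (3.31, next 3.41, below background) and the early estradiol response genes (7.87, next 8.03).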

How the results depend on the processing

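The number of features past an adjusted p of 0.05 in limma was 0 in every alternative run, while the number at an unadjusted p under 0.05 ran from 1193 to 7643, highest with array weights. Of 109 genes, 103 kept the sign of their difference in every alternative that gave them a value (24, or 23 for Elane and Prg2, which the filter on dim features removes), and adjusted p-values of Olfm4 and Bmp5 ran from 0.181 to 1. Counts of features without overlap were 640 toward E2 and 1092 toward HD among features above the median level, 2587 and 1014 after centring, and 1839 toward E2 after quantile normalization; with 1 mouse left out they ran from 1697 to 3083 and from 2922 to 5948, where fewer mice make separation easier. In the mice with numbered codes alone Itgam was 0.001, Lcn2 0.13, Ltf 0.27 and Pgr -0.56. Pgr was -0.052 with array weights and Ltf 0.021 after centring. With 1 mouse left out Ltf ran from -0.28 to 0.26, Lcn2 from -0.40 to 0.14, Pgr from -0.52 to 0.47 and Mir99b from -0.032 to 0.072. After centring, 11 lists with medians between -0.045 and -0.001 had medians above 0, and fatty acid synthesis turned to -0.004 after quantile normalization. With group means removed, same-numbered E2 and HD mice correlated at -0.111, 0.31 and -0.108, and differently numbered ones at -0.251 to 0.176. These values show no steady pairing by replicate number, but they cannot exclude shared handling. With the replicate block 0 features passed, as without it, Adgre1 was -0.10, Ltf 0.027 and Pgr -0.20, and list medians were smaller for macrophage (0.06), granulocyte (0.09), antigen presentation (0.04) and interferon-induced genes (0.21) and -0.17 for replication. Only E2 had a replicate 4, so the block term fitted that mouse exactly and took it out of the comparison. The cause of these shifts was not tested further. Features near 4.61 are limited by their signal over background.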
